A study of Homo sapiens with 5 samples.

Results

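The MEF2 family loci are 3 hg19 windows around genes of the myocyte enhancer factor 2 family, taken as MEF2A on chromosome 15 (100.05 to 100.31 Mb), MEF2C on chromosome 5 (87.96 to 88.25 Mb) and MEF2D on chromosome 1 (156.38 to 156.52 Mb). Every listed peak that overlapped a window by at least 1 bp is a member, which gave 52 of the 100703 peaks in the 3 deposited lists. The study used ChIP-seq, in which DNA bound to a chosen protein is precipitated and sequenced, in the cell lines RH18 and RD. Both are established human lines of rhabdomyosarcoma, a muscle-like childhood tumour, of the kind without a PAX-FOXO1 fusion. The 5 samples are MYF5, H3K27ac and input DNA in RH18, and H3K27ac and input DNA in RD, with 1 library each. Both lines were grown in serum-supplemented DMEM with no treatment named, and cells were fixed in 1% formaldehyde for 12 minutes. H3K27ac, acetylation of lysine 27 of histone H3, marks active promoters and enhancers, and its antibody came from Active Motif. MYF5, a basic helix-loop-helix factor of muscle progenitors, was precipitated with a Santa Cruz antibody against Myf-5. The MYF5 list gave 5 members of 11136 peaks, the RH18 H3K27ac list 16 of 46408 regions, and the RD H3K27ac list 31 of 43159. With 1 library per group no value has a replicate error, and any difference between the lines includes differences between libraries. MYOD, named in the series title, and the input samples were not analysed here.

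MEF2 proteins are MADS-box transcription factors that bind A/T-rich sites in the control regions of muscle genes. They act beside the myogenic factors of the MYOD and MYF5 group, which bind E-boxes, and in myoblasts they are held inactive by class IIa histone deacetylases. MEF2A and MEF2D are widely expressed, while MEF2C is known for its roles in heart, skeletal muscle and neurons.

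The 3 loci differed in how many regions the lines had. MYF5 peaks in RH18 numbered 2 at MEF2D, 3 at MEF2A and none at MEF2C. The MEF2D window held 13 regions in RH18 and 15 in RD. In the MEF2A window RH18 had 3 regions and RD had 5. No RH18 region was listed in the MEF2C window, where RD had 11, of which 6 had a −log10 q-value of at least 10. In RD 4 of 5 regions at MEF2A and 11 of 15 at MEF2D reached that value. The share of the whole RD list that did was not worked out. With windows extended by 50 kb on each side, RH18 had 6 regions at MEF2A and 4 MYF5 peaks at MEF2D. Whether a region lies on a promoter, exon or intron was not resolved, and the muscle label of the lines was not checked against marker genes, since no hg19 annotation was used here.

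**Figure D1:**
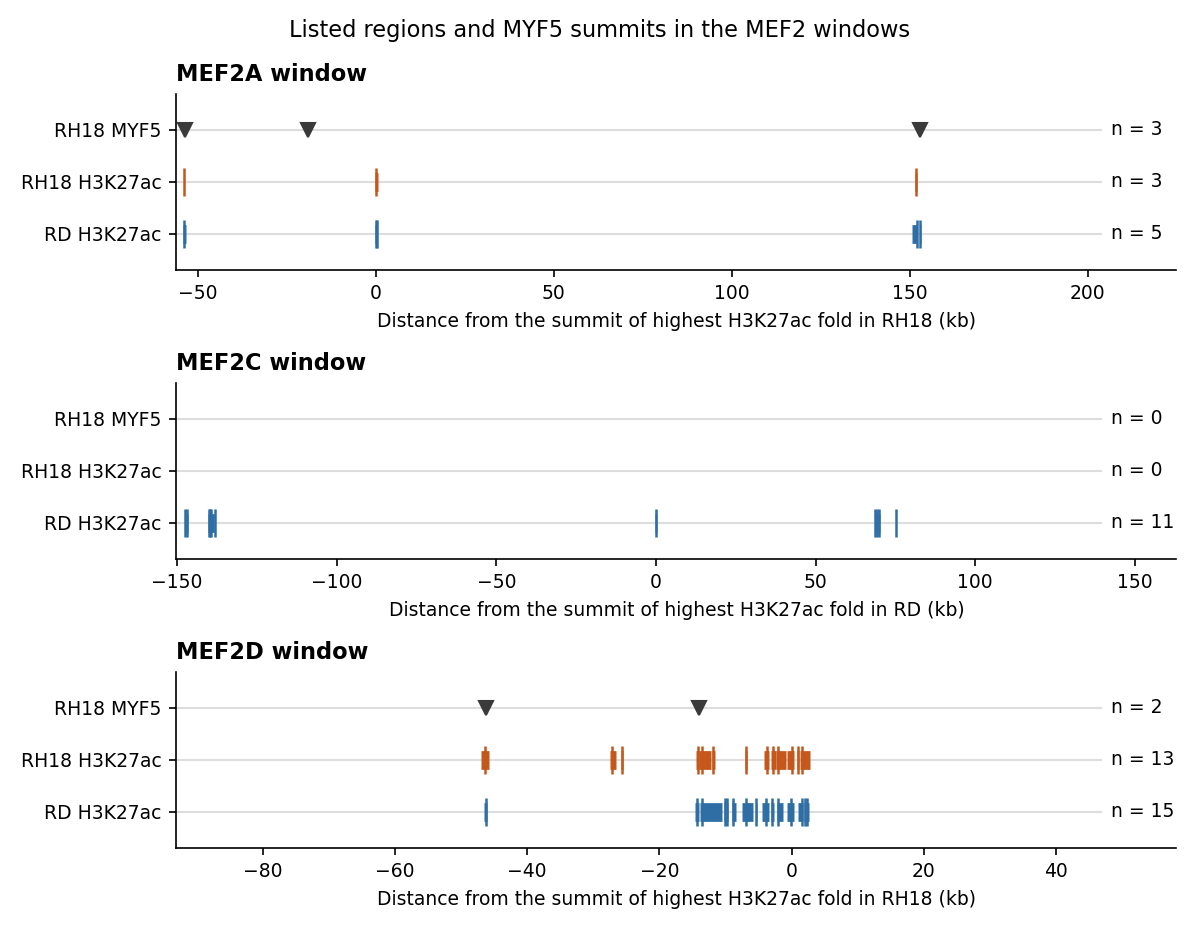
Position of H3K27ac regions (bars, with a tick at each summit) and MYF5 summits (triangles) in each window, as distance in kb from the H3K27ac summit of highest fold in RH18 (MEF2A, MEF2D) or RD (MEF2C). RH18 and RD regions line up at MEF2A and MEF2D, and the MEF2C window has 11 regions in RD and none in RH18.

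For reference, the RefSeq promoter entries of the 3 genes that hold either of a pair of motifs are shown here, since the muscle factors discussed bind such letters. Each entry is 300 bases around an annotated start. Capitals mark E-boxes (CANNTG, the motif of MYF5 and related factors) and the MEF2 site, the A/T-rich motif of the family itself. Printed are the entries with the E-box form CAGCTG or with a MEF2 site. They carry GRCh38.p14 positions and were not laid over the hg19 regions, so no listed peak is assigned to any of them.
MEF2A promoter, GRCh38.p14 chr15:99565734-99566033, plus strand: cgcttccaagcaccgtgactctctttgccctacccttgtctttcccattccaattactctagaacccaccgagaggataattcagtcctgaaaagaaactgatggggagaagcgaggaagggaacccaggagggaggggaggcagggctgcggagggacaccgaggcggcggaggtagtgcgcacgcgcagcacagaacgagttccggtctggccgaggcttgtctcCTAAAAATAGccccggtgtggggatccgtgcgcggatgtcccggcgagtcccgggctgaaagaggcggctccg
MEF2C promoter, GRCh38.p14 chr5:88785462-88785761, minus strand: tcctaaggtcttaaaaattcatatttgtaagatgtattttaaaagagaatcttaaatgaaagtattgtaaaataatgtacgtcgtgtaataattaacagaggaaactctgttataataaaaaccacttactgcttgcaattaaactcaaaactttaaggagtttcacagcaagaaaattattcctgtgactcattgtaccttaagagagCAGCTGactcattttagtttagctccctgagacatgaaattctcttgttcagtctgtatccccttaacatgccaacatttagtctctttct
MEF2C promoter, GRCh38.p14 chr5:88824295-88824594, minus strand: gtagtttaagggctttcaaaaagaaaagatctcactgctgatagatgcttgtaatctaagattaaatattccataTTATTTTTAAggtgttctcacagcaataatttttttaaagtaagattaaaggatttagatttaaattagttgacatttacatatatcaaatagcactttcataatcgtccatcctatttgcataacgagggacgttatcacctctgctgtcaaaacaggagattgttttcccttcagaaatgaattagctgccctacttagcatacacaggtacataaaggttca
MEF2C promoter, GRCh38.p14 chr5:88884487-88884786, minus strand: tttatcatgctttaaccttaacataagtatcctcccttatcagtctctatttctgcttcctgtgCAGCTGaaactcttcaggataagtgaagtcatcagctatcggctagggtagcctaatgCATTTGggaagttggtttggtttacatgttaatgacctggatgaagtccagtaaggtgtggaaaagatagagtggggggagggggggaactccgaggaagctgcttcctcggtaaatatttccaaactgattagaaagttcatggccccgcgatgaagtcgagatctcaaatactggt
MEF2D promoter, GRCh38.p14 chr1:156490638-156490937, minus strand: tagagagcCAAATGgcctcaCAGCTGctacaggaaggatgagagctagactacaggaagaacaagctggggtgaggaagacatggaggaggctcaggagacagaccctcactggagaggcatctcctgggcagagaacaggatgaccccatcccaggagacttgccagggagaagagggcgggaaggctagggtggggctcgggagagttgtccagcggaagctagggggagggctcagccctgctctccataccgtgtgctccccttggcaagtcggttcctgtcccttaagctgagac

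RefSeq gave 3 promoter entries for MEF2A, 7 for MEF2C and 1 for MEF2D. The E-box occurred in 1 of the 3, in 6 of the 7 and in the single MEF2D entry, against 68.7% of all 35116 promoter entries of equal length. CAGCTG, which is 1 form of CANNTG, occurred in none of the MEF2A entries, in 2 MEF2C entries and in the MEF2D entry, against 17.9% of all. The MEF2 site occurred in 1 MEF2A entry and 1 MEF2C entry, against 2.99% of all. All of these motifs read alike on both strands. These matches are letters in a window and were not linked to binding.

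MEF2D had the most H3K27ac regions per length of the 3 windows. H3K27ac regions came to 9.29 per 100 kb of window in RH18 and 10.7 in RD. They covered 11134 bp in RH18 and 12243 bp in RD, of which 8058 bp were covered in both, or 52.6% of the bases covered in either line. Shared bases were not worked out over the whole lists, so whether this share is high or low was not resolved. Joined across gaps of up to 12.5 kb, 12 of the 13 RH18 regions formed a 30.1 kb domain (156445622 to 156475745), ranked 502 of 18842 in RH18 by the sum of fold times width. In RD 14 of the 15 regions formed a 17.2 kb domain (156458464 to 156475712), ranked 142 of 16671. Each of these domains held 1 MYF5 summit. In both lines 1 further region lay apart, at 156426124 to 156427330 in RH18 and at 156426567 to 156427007 in RD.

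Peak height is given as fold and as tags, and neither puts the lines on a common scale. Fold is the authors' enrichment at the summit over the local background expected by the peak caller. Tags are the reads piled up at the summit, as worked out from fold and p-value of the peak. Each tag added 0.832 units of pileup in RH18 and 0.273 in RD, so ranks within a list are given beside both.

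The RH18 region of highest fold at MEF2D was 156472360 to 156473421, with fold 64.3 and 235 tags, more tags than 96.0% of RH18 regions. Its RD counterpart, 156472321 to 156473402, had fold 13.8 and 181 tags, more than 90.6% of RD regions. The summits of this pair lay 49 bp apart.

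Beside it, the region 156470745 to 156472143 had fold 39.4 and 283 tags in RH18, and the overlapping RD region 156470847 to 156471698 had fold 10.5 and 227 tags, with 9 bp between summits. These were the most tags at MEF2D in either line, which was seen after the values were known. The third pair of this row lay at 156469860 to 156470642 in RH18 (fold 41.6, 126 tags) and at 156469877 to 156470412 in RD (fold 6.84, 172 tags). At the far end of the domain, 156474340 to 156475745 had fold 29.0 and 243 tags in RH18, and 3 RD regions of fold 8.68, 8.24 and 3.26 overlapped it, with 219, 197 and 128 tags. By tags these RH18 regions stood above 79.8 to 98.5% of their list, and the overlapping RD regions above 73.7 to 97.6% of theirs.

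**Figure D2:**
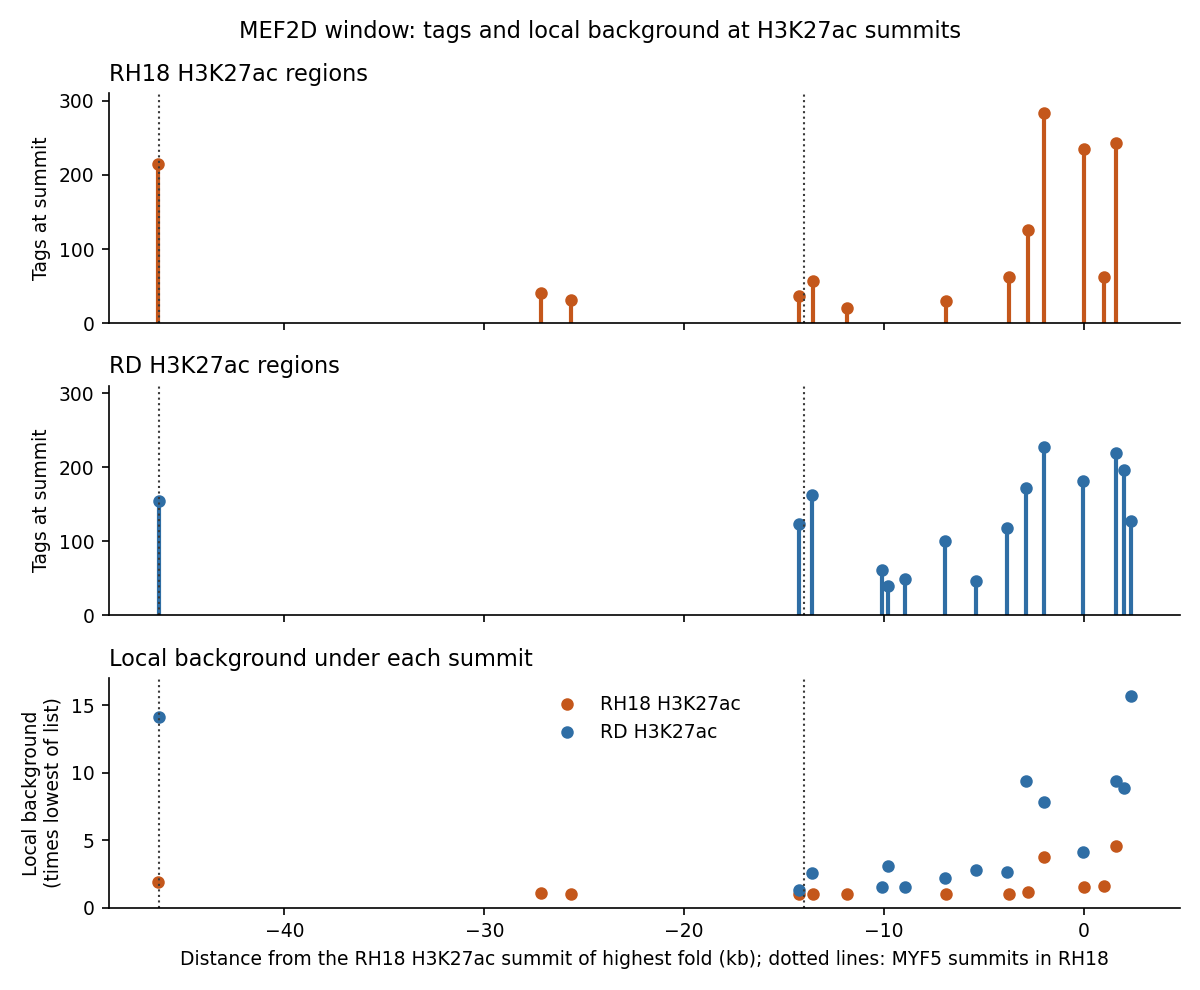
Tags at each H3K27ac summit of the MEF2D window in RH18 (top) and RD (middle), and local background under those summits as a multiple of the lowest background in the list (bottom), by distance in kb from the RH18 summit of highest fold. Both lines have their tallest summits near 0, up to 283 tags in RH18 and 227 in RD, and RD background there reaches 15.7 times the lowest.

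Fold and tags ranked the MEF2D regions differently in RD. The local background under RD summits ran from 1.30 to 15.7 times the lowest of the list, and was at least 4 times the lowest at 7 of 15 regions, against 31.9% of all RD regions. In RH18 it ran from 1.000 to 4.55 times and reached 4 times at 1 of 13 regions, against 10.1% of the list. The RD region at 156475304 to 156475712 had the highest background and the lowest fold of the window, and its 128 tags exceeded those of 73.7% of RD regions. Its fold and p-value also allow 122 tags over a background of 14.9 times the lowest, still the highest of the window. At 156426567 to 156427007 the RD region had fold 4.33, above 6.25% of its list, with 155 tags, more than 83.7% of its list, over a background of 14.1 times the lowest. The overlapping RH18 region had fold 51.4 and 215 tags over a background of 1.89 times the lowest. The part of local background in the low RD folds was not tested.

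Where regions of both lines overlapped at the lower-coordinate end of the RD domain, they ranked low to middle by tags in RH18 and higher in RD. The RD regions of this stretch without an RH18 counterpart ranked low, above 8.51 to 30.5% of the RD list. The RD regions of highest fold at MEF2D were 156458464 to 156458981 (fold 19.0, 124 tags) and the 3438 bp region 156459121 to 156462558 (fold 17.1, 163 tags). RH18 had 156458520 to 156458997 (fold 13.7, 37 tags), then 156459095 to 156460916 (fold 20.9, 57 tags) and the small 156461050 to 156461383 (fold 7.61, 20 tags) over the same stretch. By tags the RH18 trio ranked above 28.2, 49.9 and 1.82% of its list, and the RD pair above 72.0 and 86.2%. A further RD region, 156465577 to 156467155 (fold 11.6, 100 tags), was 1579 bp wide, and the RH18 region inside it, 156465982 to 156466346, was 365 bp (fold 11.2, 30 tags). Next to the tall row, 156468815 to 156469675 in RH18 (fold 22.7, 62 tags) matched 156468594 to 156469679 in RD (fold 12.2, 118 tags).

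At MEF2D 11 of 13 RH18 regions overlapped an RD region, against 45.1% of the RH18 list. Of the RD regions 11 of 15 overlapped an RH18 one, against 60.0%. The regions of 1 line alone were low by tags. In RH18 they were 156445622 to 156446418 (fold 14.2, 40 tags) and 156447286 to 156447566 (fold 11.6, 31 tags), with gaps of 12045 and 10897 bp to RD regions. RD alone had 4, with 40 to 61 tags, all 1063 to 1881 bp from an RH18 region. The higher of these were 156462792 to 156463053 (fold 8.84) and 156463960 to 156464553 (fold 7.18). The regions missing a counterpart thus rested on no more than 40 tags in RH18 and 61 in RD, below the list medians of 57.0 and 85.0. Low tags were not particular to them in RH18, where shared regions of the window had 20 to 283 tags. Shared RD regions had 100 to 227.

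MEF2A was marked at 3 places in both lines, each far smaller than the MEF2D domain. Regions covered 1542 bp in RH18 and 3073 bp in RD, with 1222 bp in both, which is 79.2% of the RH18 bases and 39.8% of the RD bases. Here too no share of bases over the whole lists was worked out. The middle place, 100105729 to 100106537, was the tallest of the window in RH18, with fold 41.3 and 114 tags, more than 76.5% of its list. In RD it was split into 100105811 to 100106090 (fold 11.1, 159 tags) and 100106256 to 100106464 (fold 4.61, 47 tags), over backgrounds of 4.68 and 3.13 times the lowest. The higher-coordinate place held the MEF2A region of highest fold in RD. The RH18 region 100257517 to 100258012 (fold 22.3, 61 tags) lay inside the 1527 bp RD region 100256593 to 100258119 (fold 30.9, 182 tags), whose fold exceeded that of 99.2% of RD regions.

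The lower-coordinate MEF2A place was small in RH18 and larger in RD. It was 100052015 to 100052251 in RH18 (237 bp, fold 10.8, 29 tags) and 100051958 to 100052792 in RD (835 bp, fold 18.1, 105 tags), with summits 12 bp apart. By tags, the RH18 region stood above 15.8% of its list and the RD region above 62.4% of its own. The only MEF2A region of 1 line alone was RD 100258830 to 100259051 (fold 8.41, 58 tags), with a gap of 817 bp to RH18 regions. RefSeq lists LYSMD4 as the next gene after MEF2A, and no region of the window was assigned to either gene.

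**Figure D3:**
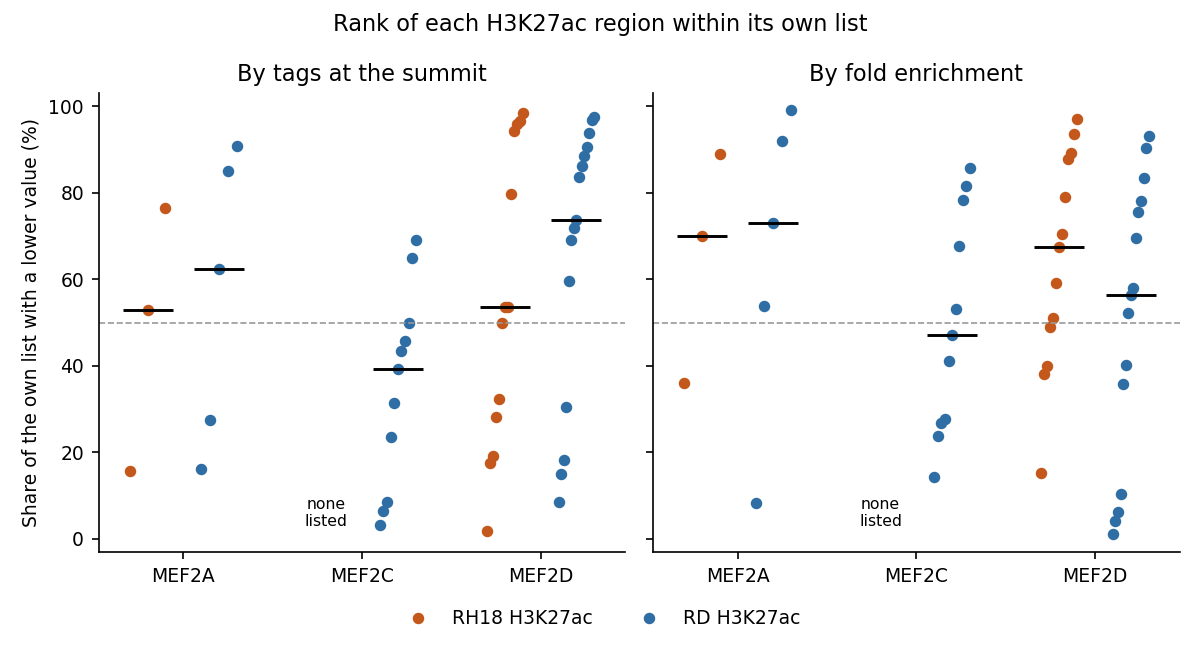
Each point is an H3K27ac region of a MEF2 window, placed by the share (%) of its own list with fewer tags (left) or lower fold (right); bars are medians and the dashed line is 50%. MEF2D regions reach 98.5% by tags in RH18 and 97.6% in RD, while MEF2C regions of RD stop at 69.2%.

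At MEF2C the 11 RD regions fell into 3 groups when joined within 12.5 kb. The first, at the lower edge of the window, held 6 of them, from 87962719 to 87972122, with folds of 5.97 to 13.3 and 34 to 118 tags. Its tallest by fold was 87971869 to 87972122 (fold 13.3, 76 tags), and its widest was 87970864 to 87971698 (835 bp, fold 8.30, 118 tags). The second group was the single region 88110056 to 88110400, which had the highest fold of the window (14.8) and 85 tags. The third held 4 regions from 88178823 to 88185510, led by 88179842 to 88180415 (fold 12.3, 79 tags) and 88179125 to 88179597 (fold 10.2, 71 tags). In RD, the first of these groups with 2 more regions just outside the window ranked 3216 of 16671 domains, the third 4712 and the single region 9857.

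By tags these RD regions ran from 3.15 to 69.2% of their list, and 9 of the 11 ranked below 50%. By fold they ran from 14.4 to 85.8%. Their median was fold 7.75 and 71.0 tags, against 8.0 and 85.0 over the whole RD list. They were narrow, 166 to 835 bp, and covered 3785 bp or 1.31% of the window. Local background reached 4 times the lowest at 2 of 11 regions, against 31.9% of the list.

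No RH18 region lay near them. The nearest RH18 region lay 398 to 620.4 kb away (median 407 kb), against a median of 9.98 kb over the 17275 RD regions without an RH18 counterpart. Only 1.24% of all RD regions were 398 kb or more from an RH18 region (535 of 43159). The RH18 list was empty for 2140.1 kb around MEF2C, between 87564949 and 89705048. RD had 14 regions in that stretch, 11 of them in the window, and the MYF5 list had 1 summit there, outside the window. Of 7197 runs of consecutive RD regions with no RH18 region among them, 94 (1.31%) were at least as long. Both cut-offs, 398 kb and 14 regions, were taken from the MEF2C regions themselves, which all lie in the same stretch. The 2 percentages therefore describe the locus and are not a test of how unusual it is. All 11 MEF2C regions had a −log10 p-value above 7.09, the lowest in the RH18 list, with values of 8.41 to 28.7. So did most RD regions without an RH18 counterpart, as 16252 of the 17275 reached 7.09. Whether signal of that size would be listed in the RH18 library was not tested. The fewest tags at any listed RH18 summit were 15. The limit for listing is not stated, so weaker acetylation could be present in RH18 and unlisted. A difference between the lines and one between the libraries cannot be told apart.

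A gene of the brain-enriched microRNA miR-9 stands on the lower-coordinate side of both MEF2D and MEF2C in the RefSeq order. MIR9-1 is the first gene on that side of MEF2D, followed by its host gene MIR9-1HG. At MEF2C, MIR9-2 comes after GSCAR and MEF2C-AS2, with its host gene MIR9-2HG further out, and 6 of the 11 RD regions lay at that end of the window. Whether a region lies on them was not resolved, since the annotation is of another build. Both hairpins give an identical mature product, shown from RefSeq (GRCh38.p14) with its seed, bases 2 to 8, in capitals.
hsa-miR-9-5p: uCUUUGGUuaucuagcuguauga

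The counts of shared regions follow from these loci. Of the RH18 regions in the windows, 14 of 16 (87.5%, exact 95% binomial interval 61.7 to 98.4%) overlapped an RD region, against 45.1% of the whole RH18 list. Of the RD regions, 15 of 31 (48.4%, 30.2 to 66.9%) overlapped an RH18 region, against 60.0% of the whole RD list. By locus the RD share was 4 of 5 at MEF2A (28.4 to 99.5%), 0 of 11 at MEF2C (upper bound 28.5%) and 11 of 15 at MEF2D (44.9 to 92.2%). The RH18 share was 3 of 3 at MEF2A and 11 of 13 at MEF2D. The pooled RD share is therefore a mix of none at MEF2C with shares at MEF2A and MEF2D whose intervals include the 60.0% of the list. No test between the lines was possible, neighbouring regions are not independent, and the intervals cover counting error only.

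**Figure D4:**
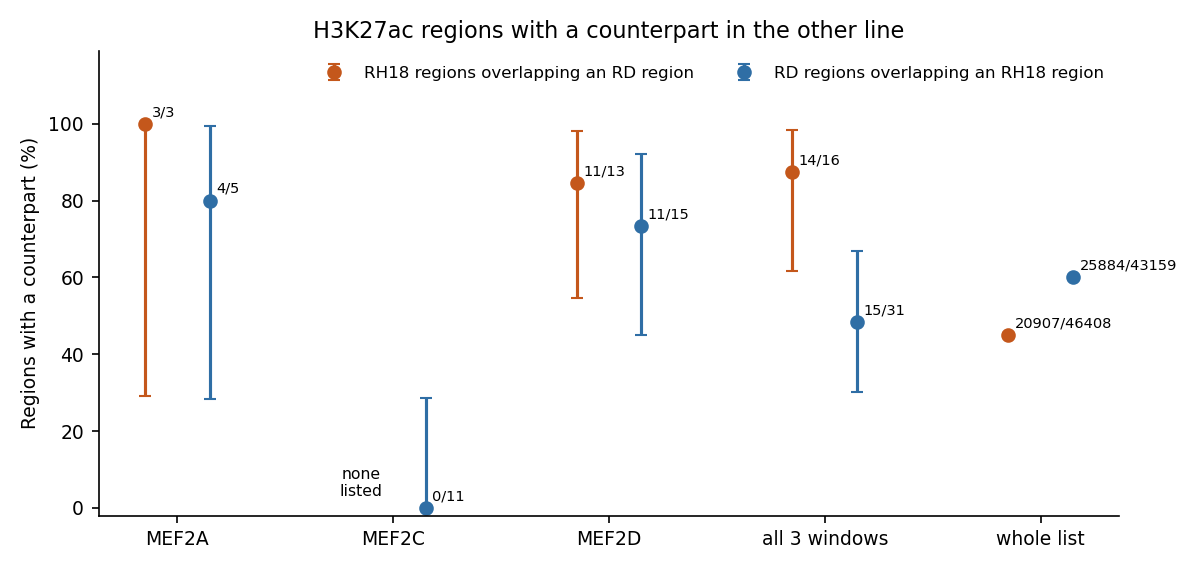
Share (%) of H3K27ac regions with a counterpart in the other line, for RH18 regions (orange) and RD regions (blue), with exact 95% binomial intervals and counts as region with counterpart over all. RD regions have a counterpart in 0 of 11 cases at MEF2C and in 11 of 15 at MEF2D, beside 60.0% of the whole list.

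Asking for an overlap of 50% of both regions lowered these shares to 37.5% in RH18 and 19.4% in RD. The shares of the whole lists under this rule were not worked out, and the list shares given above use any overlap. Distances between summits of overlapping regions were near those of the lists. Of the shared RH18 regions, 9 of 11 at MEF2D (median 61.0 bp, range 9 to 1731 bp) and 2 of 3 at MEF2A (median 23.0 bp) had an RD summit within 100 bp, against 74.4% of the list (median 43.0 bp). Of the shared RD regions, 9 of 11 at MEF2D (median 61.0 bp, range 9 to 773 bp) and 2 of 4 at MEF2A (median 89.0 bp) had an RH18 summit within 100 bp, against 60.1% of the list (median 61.0 bp).

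The 5 MYF5 peaks in RH18 had 27 to 47 tags and folds of 7.08 to 15.7, against medians of 42.0 tags and fold 11.2 over the MYF5 list. Their positions relative to acetylation differed from peak to peak. Of the 5 summits, 1 was inside an H3K27ac region of RH18, against 55.2% of all MYF5 summits. Inside an RD region lay 3 of the 5, against 39.9%. Within 500 bp of a region lay 3 in RH18, against 72.1%, and 4 in RD, against 62.9%. Outside the regions of both lines lay 2, against 38.4%. With so few summits the exact intervals are wide, 0.505 to 71.6% for RH18 and 14.7 to 94.7% for RD.

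The tallest MYF5 peak was at MEF2D, 156458917 to 156459195 (fold 15.7, 47 tags, summit 156459060). Its summit sat in a gap of the acetylated domain in both lines. An RH18 region ended 63 bp before it and the next began 35 bp after it, and in RD these distances were 79 and 61 bp. Summits in such a gap in both lines, with regions ending within 500 bp on each side, made up 1.51% of the MYF5 list (168 of 11136). This class was not among the planned results and holds 1 of the 5 members, so the share is a description only. The gap separates the RH18 regions of fold 13.7 and 20.9 and the RD regions of fold 19.0 and 17.1 described above.

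The other MEF2D peak, 156426421 to 156426897 (fold 7.08, 30 tags, summit 156426750), was inside the isolated region of both lines. It was the only one of the 5 inside an RH18 region, and 1 of 16 RH18 regions and 3 of 31 RD regions thus held a MYF5 summit, against 12.0% and 9.71% of the lists. The RH18 region around it was among the taller ones, above 93.7% of its list by fold. MYF5 there was low, above 9.79% of the MYF5 list by fold, over a background of 1.88 times the lowest.

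At MEF2A both outer places had a MYF5 peak beside the RH18 region and inside the RD region. The peak 100052261 to 100052532 (fold 14.1, 42 tags) had its summit 138 bp beyond the end of the RH18 region and inside the 835 bp RD region. At the other end, 100258788 to 100258998 (fold 10.9, 32 tags) lay 842 bp from the RH18 region and inside the small RD region that had no RH18 counterpart. Summits inside an RD region and outside RH18 regions were thus 2 of 5 (exact 95% interval 5.27 to 85.3%), against 6.38% of the MYF5 list. The interval includes the list share, and this class was not among the planned results, so the share is a description only. MYF5 was mapped in RH18 only, and its binding in RD was not analysed here. The third peak, 100086865 to 100087082, had the fewest tags (27, fold 9.25), with the nearest region 18796 bp away in RH18 and 18878 bp in RD. The middle MEF2A region, tallest in RH18, held no MYF5 summit.

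**Figure D5:**
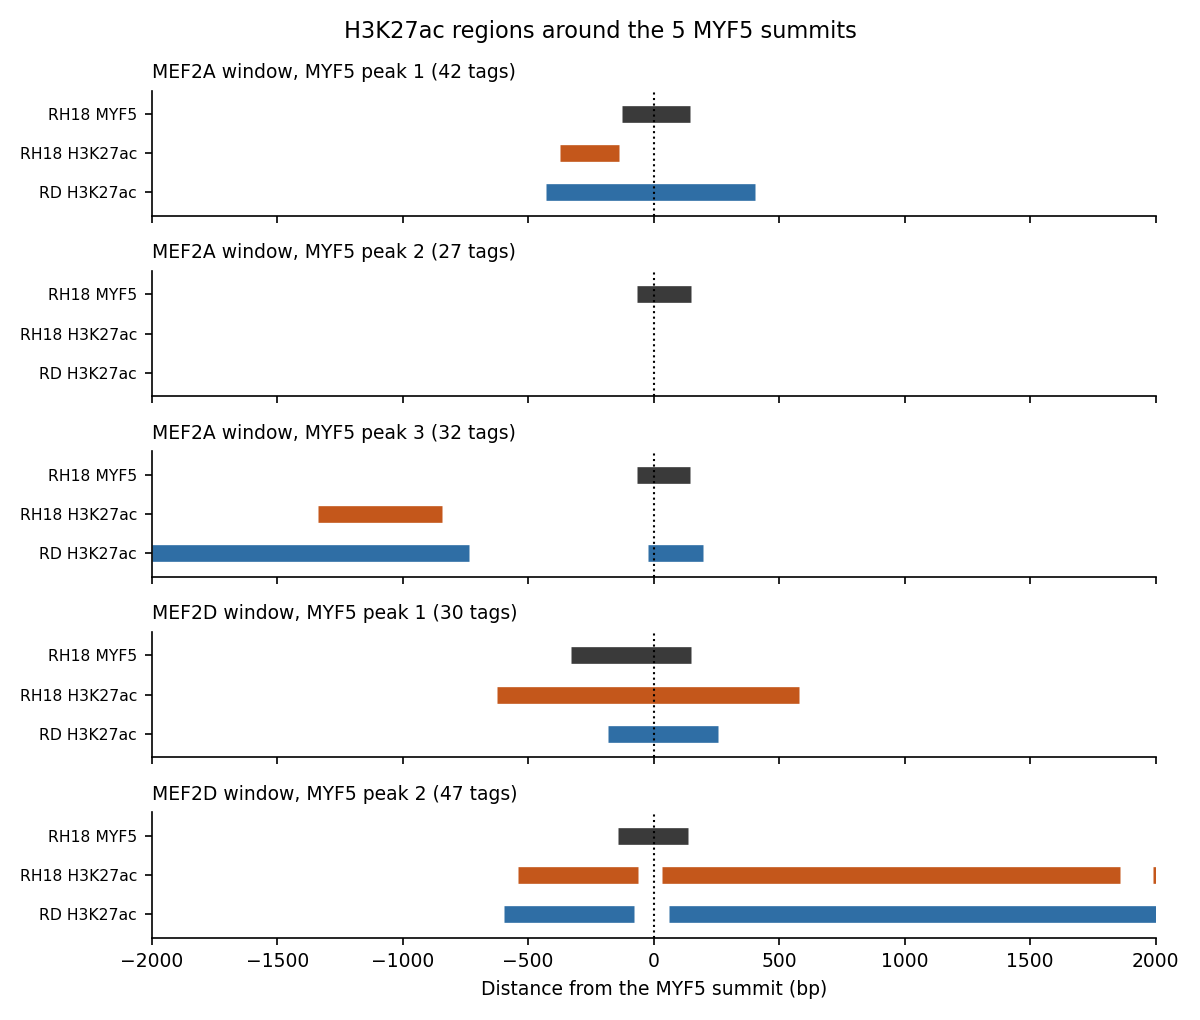
H3K27ac regions of RH18 (orange) and RD (blue) within 2000 bp of each of the 5 MYF5 summits (RH18, dark bars show the MYF5 peak), by distance in bp from the summit. The second MEF2D summit falls between regions in both lines, and the outer MEF2A summits fall inside RD regions but beside RH18 ones.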

How the data were processed

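ChIP-seq peak lists of MYF5 and H3K27ac in RH18 and of H3K27ac in RD were used, 1 list per library. Per the submitters' processing notes, BWA 0.7.10, MACS2 2.1.0 and the build hg19 were used; their roles, the control and the threshold are not stated there. The deposited fold is the ratio of pileup plus 1 to local background plus 1 at each summit. The deposited lists also give a −log10 p-value and −log10 q-value per peak; the lowest −log10 p-value was 7.09 (RH18 H3K27ac), 5.00 (RD) and 9.09 (MYF5). The deposited score, a rescaled p-value, and the summit offset complete each entry; the score was not used. All peak values are the authors'.

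Library depth is unknown. Tags and background were recovered by solving the MACS2 fold and Poisson p-value formulas, with the commonest background as the lowest; tags came out whole within 0.1 for 100.0% of peaks per list. More than 1 solution existed for 7.59% of RH18 H3K27ac, 45.3% of RD and 18.5% of MYF5 peaks, and the nearest whole tag was taken. Among members this concerned 1 of 16 RH18 regions, 15 of 31 RD regions and 2 of 5 MYF5 peaks; a further solution was whole within 0.1 for 1 of them, an RD region at MEF2D. On peaks simulated with the same formulas and backgrounds up to 16 times the lowest, the step returned the tags of 100.0% of 2898 RH18 H3K27ac, 2818 RD and 2895 MYF5 peaks, also of the 144, 807 and 172 with several solutions, in that order. This checks the code, not whether the formulas hold. Shares carry Clopper-Pearson 95% intervals.

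Members, windows and tests were chosen with earlier results of these data known. Named are all MYF5 peaks and, per window and line, the 5 regions of highest fold, those of at least 2000 bp, and those of 1 line alone among the 10 highest. Their counterparts in the other line, the RH18 regions at the lower end of the RD domain at MEF2D and RH18 156447286 to 156447566 fall outside that rule. They were added after their values were seen. At MEF2C, where every RD region was of 1 line alone, only the 5 of highest fold are named and the others are given by range. Planned counts over other pathway genes, marker genes and letters under peaks need an hg19 annotation or genome and were not run. Promoters and the microRNA are from RefSeq, GRCh38.p14. Tools were numba 0.67.0, matplotlib 3.10.9, scipy 1.17.1, pandas 2.3.3 and numpy 2.4.6 under Python 3.11.15.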

Additional observations from a re-analysis of the deposited data

How the results depend on the processing

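Of 31 alternatives over the 3 windows, 27 stayed within the interval or within 1.5 times the count, and 4 moved. The count of 27 says little about robustness. With 5 MYF5 summits the interval is wide, and 3 summits counted in RH18 regions in place of 1 stayed within it. No listed peak crossed a window edge, so asking for the summit inside the window could not change the members. Cutting the lists to equal length removed no RD region of the windows. An overlap of 50% of both regions gave 37.5% of RH18 regions and 19.4% of RD regions with a counterpart. Keeping 5000 MYF5 peaks, those with the largest −log10 p-values, left 2 members, with 0% inside RH18 regions (upper bound 84.2%). Under these settings the shares of the whole lists were not worked out. Windows extended by 50 kb on each side held 8 MYF5 peaks in place of 5, with 4 in place of 2 at MEF2D, and 6 RH18 regions in place of 3 at MEF2A. The MEF2C window stayed without RH18 regions and MYF5 peaks when extended by 50 kb on each side. The other alternatives could not have added any there. A −log10 q of at least 10 left 6 of the 11 RD regions at MEF2C, 4 of 5 at MEF2A and 11 of 15 at MEF2D. The share of the whole RD list left by it was not worked out. No paired analysis was possible because each group is 1 library. A missing region means no listed peak; lists ended at different p-values, which limits what absence shows.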
